A study of Mus musculus with 4 samples.

Results

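Interferon-stimulated genes are the genes that cells switch on after type I interferon binds its receptor. The set described here was a list of 44 mouse gene symbols. No cut on a measured value was used, though earlier results of these data were known when the list was drawn up. Of these, 42 were matched to the deposited gene table of 32285 genes by symbol, and Mx1 and Mx2 were not analysed here. The levels of 40 reached a mean of at least 10 unique molecular identifiers (UMIs, each counting 1 captured RNA molecule) per 1000000 (CPM) over the 4 libraries, in cells called macrophage-like. Ifi205, at a mean of 8.78 CPM, and Ifi44, at a mean of 5.64 CPM, lay under that minimum. The same minimum kept 8496 genes in all, which served as the background throughout.

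The study asked how a DNA-damaging drug alters the macrophages that live in the mouse heart. Hearts of 20 adult mice of mixed sex gave 4 pools of 5 mice, and each pool became 1 single-cell RNA library from 10000 loaded cells. Carboplatin, a platinum drug whose adducts block DNA replication, was given at 45 mg/kg by intraperitoneal injection 2 times a week for 2 weeks, or the same volume of phosphate-buffered saline (PBS). After 4 weeks of recovery they carried an osmotic minipump for 7 days. The 4 groups were carboplatin then a pump with angiotensin II (1.5 mg/kg per day) and PE (50 mg/kg per day), PBS then the same AngII/PE pump, carboplatin then a saline pump, and PBS then a saline pump. Before loading, cells were sorted as CD45+ CD11b+ Ly6G– Ly6C-low and CD64+, a gate for tissue macrophages and related phagocytes. The sources used here do not name the strain. The pooled design leaves 1 library per group, so no difference below has a replicate check. Intervals cover counting error only.

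After filtering, 17312 of 27968 barcodes were kept, and they numbered 5669 after carboplatin and 3849 after PBS with AngII/PE, and 3484 after carboplatin and 4310 after PBS with saline. Between 35 and 43 barcodes of each library also occurred in another. Clusters that carried macrophage markers (Adgre1, Fcgr1, Csf1r, C1qa and others) gave 3896 macrophage-like cells after carboplatin with AngII/PE, 2108 after PBS with AngII/PE, 1019 after carboplatin with saline and 1961 after PBS with saline. These were 8984 of the kept cells, beside endothelial-like cells, fibroblast-like cells, B cells, dendritic cells and barcodes rich in cardiomyocyte transcripts that the sort had let through. Their summed UMIs were 56262551 after carboplatin and 31960782 after PBS with AngII/PE, and 17066986 after carboplatin and 28106989 after PBS with saline, so the macrophage-like cells of carboplatin with saline carried the fewest counts. Unnamed clusters with macrophage markers, outside this class, held 919 cells after carboplatin and 926 after PBS with AngII/PE, and 1268 after carboplatin and 1181 after PBS with saline. Among them a cluster of 1215 cells was not low in UMIs, with a median of 10641 per cell. The AngII/PE and saline libraries differed in which macrophages they held. A cluster with resident markers (Timd4, Lyve1, Cd163) made up 1.13% and 4.41% of macrophage-like cells with AngII/PE, after carboplatin and after PBS, against 81.6% and 90.5% with saline. Clusters led by Fcrls and Ccl8, by inflammatory chemokines, by MHC class II genes and by Gpnmb and Spp1 held most of the other cells. Fewer cells of a kind and less RNA per cell cannot be told apart in sums over a library, so values within clusters are given below beside the sums.

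Type I interferons bind the receptor chains Ifnar1 and Ifnar2, whose kinases Jak1 and Tyk2 signal to a transcription factor complex that holds Irf9 and Stat2. It binds the interferon-stimulated response element (ISRE) in the promoters of target genes. The products block viral entry, translation and genome replication, sense foreign nucleic acid, or tune the response itself. In heart tissue, an interferon-responsive macrophage state is known after injury, where nucleic acid from dying cells is sensed.

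The ISRE was searched for as GAAANNGAAA, on both strands and with overlapping matches allowed, in RefSeq windows from 250 bases before to 50 bases after each start site (assembly GRCm38.p6). Of the 42 members, 33 had such a window and 18 of these (54.5%) held at least 1 match, against 4.33% of the 6831 genes of the background with a window and 3.44% of all 32851 windows. Upstream stretches of 250 bases are shown for 5 members on which the contrasts below turn. Capitals mark ISRE matches, which on the opposite strand read TTTCNNTTTC. Each is written 5′ to 3′ in the direction of transcription and ends 1 base before the start site.
Isg15: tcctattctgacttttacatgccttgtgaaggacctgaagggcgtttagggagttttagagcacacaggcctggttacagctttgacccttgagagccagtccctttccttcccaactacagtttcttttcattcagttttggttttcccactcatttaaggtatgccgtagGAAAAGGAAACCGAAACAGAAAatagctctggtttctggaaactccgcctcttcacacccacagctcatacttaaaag
Ifit1: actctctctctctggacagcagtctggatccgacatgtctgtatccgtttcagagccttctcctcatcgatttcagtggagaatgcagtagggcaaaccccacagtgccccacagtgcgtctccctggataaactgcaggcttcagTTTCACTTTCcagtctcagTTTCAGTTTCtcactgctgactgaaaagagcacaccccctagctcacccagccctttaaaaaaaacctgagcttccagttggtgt
Ifit3: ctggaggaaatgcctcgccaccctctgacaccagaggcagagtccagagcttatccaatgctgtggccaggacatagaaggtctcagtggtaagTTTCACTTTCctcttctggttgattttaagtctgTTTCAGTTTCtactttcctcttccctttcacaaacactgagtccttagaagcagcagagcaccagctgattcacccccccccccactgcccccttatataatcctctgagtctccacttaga
Bst2: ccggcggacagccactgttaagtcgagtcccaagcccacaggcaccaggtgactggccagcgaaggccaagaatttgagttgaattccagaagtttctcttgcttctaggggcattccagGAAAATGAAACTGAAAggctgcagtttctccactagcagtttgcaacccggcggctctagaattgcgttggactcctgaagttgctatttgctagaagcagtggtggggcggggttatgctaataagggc
Irf7: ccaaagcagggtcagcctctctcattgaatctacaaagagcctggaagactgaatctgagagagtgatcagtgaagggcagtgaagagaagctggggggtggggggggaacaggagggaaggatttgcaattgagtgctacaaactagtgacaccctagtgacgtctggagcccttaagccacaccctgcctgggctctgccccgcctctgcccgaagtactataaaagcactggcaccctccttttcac
The Isg15 stretch (chr4:156200819-156201068, minus strand) held 3 overlapping matches beginning 78, 72 and 66 bases before the start. The Bst2 stretch (chr8:71537473-71537722, minus strand) held 2 overlapping ones. Ifit1 (chr19:34640639-34640888, plus strand) and Ifit3 (chr19:34583279-34583528, plus strand) each held 2 separate matches on the opposite strand. In the Irf7 stretch (chr7:141266425-141266674, minus strand) these letters were not found.

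The members with the highest levels in macrophage-like cells code for membrane proteins. The restriction factor Ifitm3, which blocks fusion of viruses in endosomes, stood at 968 CPM after carboplatin with AngII/PE, 761 after PBS with AngII/PE, 1105 after carboplatin with saline and 1191 after PBS with saline. Ifi27l2a had 1033 CPM after carboplatin and 725 CPM after PBS with AngII/PE, and 1154 CPM after carboplatin and 864 CPM after PBS with saline. Ly6e, a surface protein that limits coronavirus entry, had 871 CPM after carboplatin and 562 CPM after PBS with AngII/PE, and 521 CPM after carboplatin and 475 CPM after PBS with saline. These 3 genes were the most abundant members in every library, ahead of Bst2 (tetherin, which holds budding virions at the membrane) with 357 CPM after carboplatin and 250 CPM after PBS with AngII/PE, and 205 CPM after carboplatin and 243 CPM after PBS with saline. Summed over the 40 members, macrophage-like cells carried 5865 CPM after carboplatin and 4527 CPM after PBS with AngII/PE, and 5209 CPM after carboplatin and 4945 CPM after PBS with saline. The lowest of the 4 sums was that of PBS with AngII/PE.

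**Figure D1:**
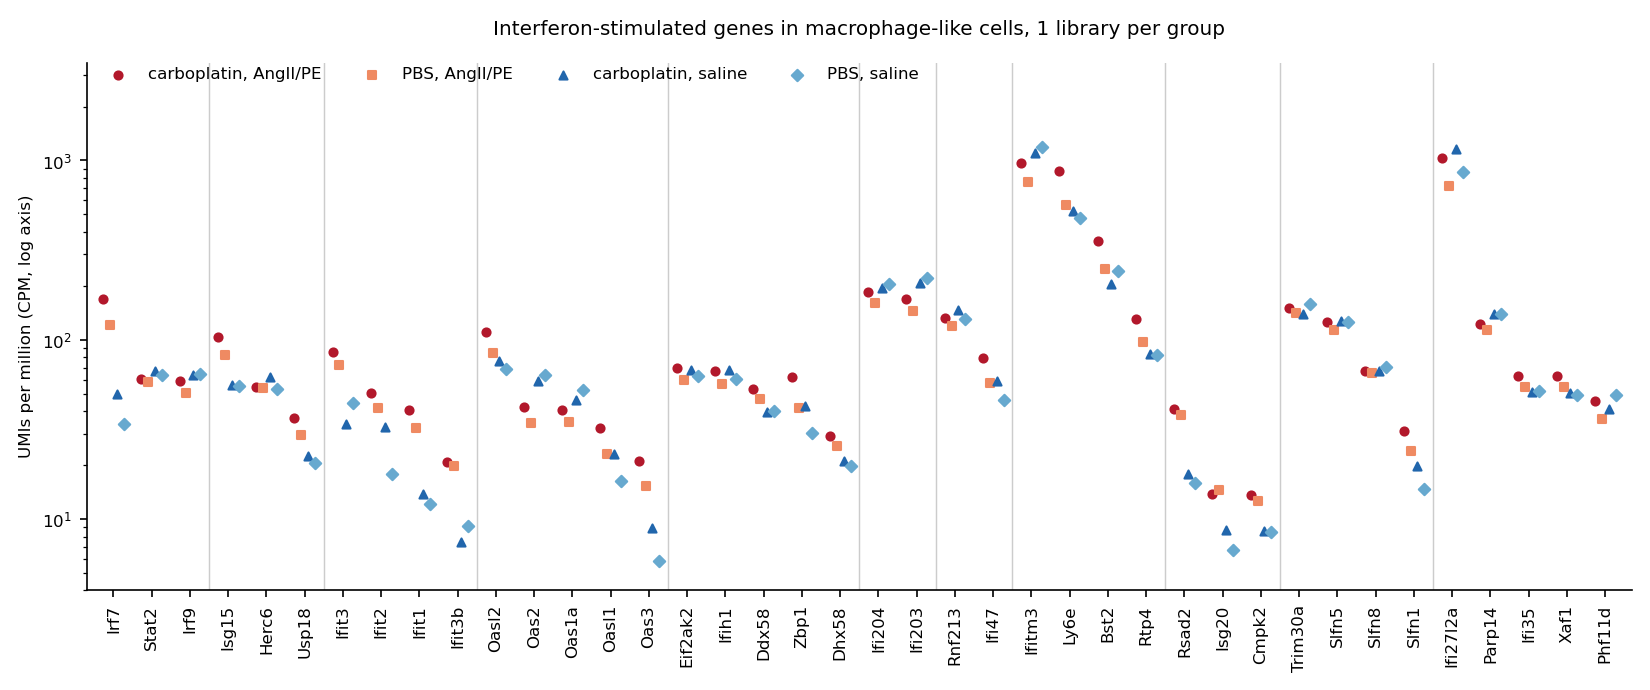
CPM of each measured member (log axis) in the macrophage-like cells of the 4 libraries, grouped by role from signalling genes on the left to other members on the right; each point is 1 library. Ifitm3, Ly6e and Ifi27l2a lie highest, and the Ifit genes, Rsad2 and Irf7 have both AngII/PE libraries above both saline libraries.

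With the AngII/PE pump, carboplatin-treated hearts had more of nearly every member in their macrophages than PBS-treated hearts, by a small amount. Of 40 members, 39 were higher and 1 was lower (all genes: 51.4% higher), with a median log2 ratio of 0.23 against 0.00 over all genes. The 95% counting interval lay above 1 for 34 members (all genes: 23.6%) and below 1 for 0 (all genes: 21.0%). Only Ly6e passed 1.5-fold upward, at 871 CPM after carboplatin and 562 CPM after PBS, 1.55-fold higher (interval 1.52 to 1.58; all genes past 1.5-fold upward: 0.435%), and 0 members were 1.5-fold lower (all genes: 0.989%). Most members were thus higher by less than 1.5-fold. The pools differed in sex mix, and the median was 0.11 with both sexes given the same weight, 0.04 in cells called female and 0.21 in cells called male.

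Ly6e, Zbp1, Bst2 and Ifi27l2a stood highest. Bst2 had 357 CPM after carboplatin and 250 CPM after PBS, 1.43-fold higher (interval 1.39 to 1.47). Ifi27l2a had 1033 CPM after carboplatin and 725 CPM after PBS, 1.42-fold higher (interval 1.40 to 1.45). Ifitm3 had 968 CPM after carboplatin and 761 CPM after PBS, 1.27-fold higher (interval 1.25 to 1.29). The 4 members grouped as membrane restriction genes, Bst2, Ifitm3, Ly6e and Rtp4, a chaperone of surface receptors, were all higher, at a median log2 ratio of 0.47. Among the sensors, Zbp1, which recognises Z-form nucleic acid, had 62.1 CPM after carboplatin and 41.4 CPM after PBS, a ratio of 1.50 (interval 1.41 to 1.60). The RNA helicases Ifih1 (MDA5), Ddx58 (RIG-I) and Dhx58 and the kinase Eif2ak2 (PKR) were each higher with log2 ratios between 0.19 and 0.23.

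Irf7, the transcription factor that amplifies interferon production, had 168 CPM after carboplatin and 121 CPM after PBS, 1.39-fold higher (interval 1.34 to 1.44). Irf9 and Stat2, which belong to the complex that binds the ISRE, were nearer to even. Irf9 had a log2 ratio of 0.20, and Stat2, with 60.2 CPM after carboplatin and 57.9 CPM after PBS, had an interval that spans 1. The OAS family, whose active members make the 2′-5′ oligoadenylates that activate RNase L, had 5 measured genes with log2 ratios between 0.21 and 0.48. Oasl2 was the most abundant of them, with 111 CPM after carboplatin and 84.6 CPM after PBS. Isg15, the ubiquitin-like modifier, had 104 CPM after carboplatin and 82.7 CPM after PBS, a ratio of 1.26 (interval 1.20 to 1.32). The Ifit genes, whose products bind foreign RNA ends, ranged from 0.08 (Ifit3b) to 0.32 (Ifit1) on the log2 scale. The lowest members were the exonuclease Isg20, with 13.9 CPM after carboplatin and 14.5 CPM after PBS, Herc6, the mouse ligase for Isg15, with 54.2 CPM after carboplatin and 53.6 CPM after PBS, and Slfn8, a schlafen protein, with 66.9 CPM after carboplatin and 65.0 CPM after PBS. For these 3 the interval spans 1.

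**Figure D2:**
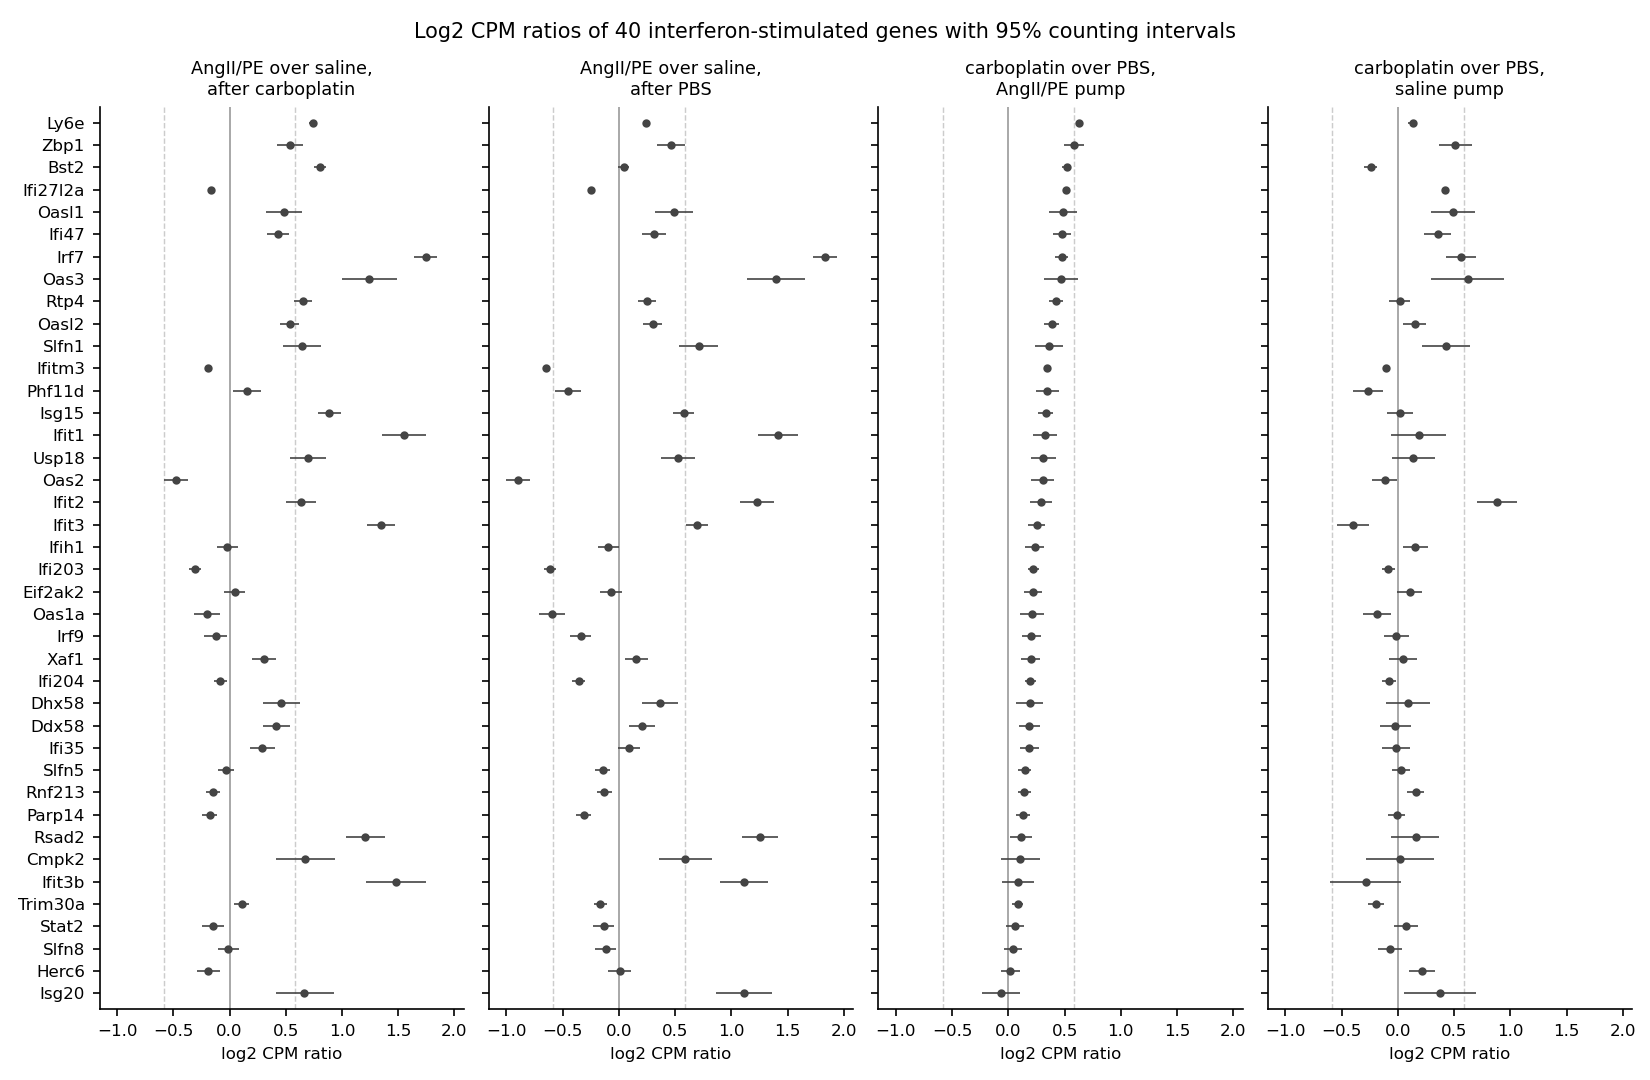
Log2 CPM ratios of the 40 measured members in the 4 comparisons, sorted by carboplatin over PBS under AngII/PE; bars are 95% counting intervals and dashed lines mark 1.5-fold. In the third panel 39 of 40 points lie above 0, and in the 2 left panels the Ifit genes, Irf7, Oas3 and Rsad2 stand to the right.

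With the saline pump the pooled macrophage-like cells showed no such common direction. Relative to PBS, 25 of 40 members were higher after carboplatin and 15 lower (all genes: 41.8% higher), with a median log2 ratio of 0.06 and -0.04 over all genes. Past 1.5-fold upward were Ifit2, at 32.8 CPM after carboplatin and 17.8 CPM after PBS (1.84-fold, interval 1.63 to 2.08), and Oas3, at 8.96 CPM after carboplatin and 5.83 CPM after PBS (1.54-fold, interval 1.22 to 1.93). That is 2 of 40 members, against 1.68% of all genes, and 0 members were 1.5-fold lower (all genes: 2.15%). Irf7, with 50.2 CPM after carboplatin and 34.0 CPM after PBS, and Zbp1, with 42.8 CPM after carboplatin and 30.0 CPM after PBS, followed with log2 ratios of 0.56 and 0.51. The sexes differed here too, with 34 of 40 members higher in male-called cells (median 0.33) and 16 of 40 in female-called cells (-0.03).

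The Ifit genes differed in direction there. Ifit3 had 33.7 CPM after carboplatin and 44.5 CPM after PBS, 1.32-fold lower (interval 1.19 to 1.46), and Ifit3b had 7.50 CPM after carboplatin and 9.14 CPM after PBS, with an interval that spans 1. Ifit2 was the highest member of the comparison and Ifit3 the lowest. Phf11d, with 41.0 CPM after carboplatin and 49.3 CPM after PBS, and Bst2, with 205 CPM after carboplatin and 243 CPM after PBS, were the other low members.

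In the pooled cells the carboplatin difference was larger under AngII/PE than under saline for most members. The difference of the log2 ratios (AngII/PE minus saline) had a median of 0.14 over members, which became -0.13 in male-called cells and 0.03 with both sexes given the same weight. It was 0.76 for Bst2 (interval 0.69 to 0.83), 0.65 for Ifit3 (0.49 to 0.81), 0.61 for Phf11d (0.44 to 0.77) and 0.50 for Ly6e (0.45 to 0.55). Ifit2 had the opposite sign at -0.59 (-0.79 to -0.39), and Irf7 differed little between pumps at -0.09 (-0.23 to 0.06).

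The largest ratios of single members were between pumps. After carboplatin, 26 of 40 members were higher with AngII/PE than with saline (all genes: 53.8%), 15 of them at least 1.5-fold (all genes: 7.63%), and 0 were 1.5-fold lower (all genes: 7.53%), with a median log2 ratio of 0.42. After PBS, 24 of 40 were higher (all genes: 50.6%), 10 at least 1.5-fold (all genes: 8.20%) and 4 were 1.5-fold lower (all genes: 8.92%), with a median of 0.18. Over members with a mean of at least 50 CPM the medians were 0.017 after carboplatin and -0.083 after PBS. In male-called cells the median after carboplatin was 0.050. Each pair of comparisons with the same drug or pump shares libraries, so the values are given side by side and not as independent repeats.

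Irf7 stood at 168 CPM with AngII/PE against 50.2 CPM with saline after carboplatin, and at 121 against 34.0 CPM after PBS. Both AngII/PE libraries were above both saline libraries, by 3.35-fold (interval 3.12 to 3.59) after carboplatin and 3.56-fold (interval 3.31 to 3.82) after PBS. Ifit1 had 40.5 CPM with AngII/PE and 13.8 CPM with saline after carboplatin and 32.4 CPM with AngII/PE and 12.2 CPM with saline after PBS. Ifit3 had 85.6 CPM with AngII/PE and 33.7 CPM with saline after carboplatin and 72.0 CPM with AngII/PE and 44.5 CPM with saline after PBS. All 4 Ifit genes passed 1.5-fold upward after either drug, Ifit3b at 20.9 CPM with AngII/PE and 7.50 CPM with saline after carboplatin and at 19.7 CPM with AngII/PE and 9.14 CPM with saline after PBS. Ifit2 had 50.8 CPM with AngII/PE and 32.8 CPM with saline after carboplatin and 41.6 CPM with AngII/PE and 17.8 CPM with saline after PBS.

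Rsad2 (viperin, which makes a chain-terminating nucleotide) had 41.2 CPM with AngII/PE and 17.8 CPM with saline after carboplatin and 38.1 CPM with AngII/PE and 16.0 CPM with saline after PBS. Oas3 had 21.2 CPM with AngII/PE and 8.96 CPM with saline after carboplatin and 15.3 CPM with AngII/PE and 5.83 CPM with saline after PBS. Isg20 had 13.9 CPM with AngII/PE and 8.73 CPM with saline after carboplatin and 14.5 CPM with AngII/PE and 6.72 CPM with saline after PBS. These low-abundance antiviral genes were higher with AngII/PE in both arms.

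Several members were lower instead. Ifitm3 had 968 CPM with AngII/PE against 1105 CPM with saline after carboplatin, and 761 against 1191 CPM after PBS, 1.57-fold lower (interval 1.54 to 1.59) in that arm. Oas2 had 42.4 CPM with AngII/PE and 59.1 CPM with saline after carboplatin, and 34.3 CPM with AngII/PE and 64.0 CPM with saline after PBS, 1.86-fold lower (interval 1.73 to 2.01) in that arm. Ifi203, a relative of the DNA sensor IFI16, had 168 CPM with AngII/PE and 208 CPM with saline after carboplatin, and 144 CPM with AngII/PE and 221 CPM with saline after PBS. Ifi204, from the same family, had 184 CPM with AngII/PE and 194 CPM with saline after carboplatin, and 160 CPM with AngII/PE and 206 CPM with saline after PBS. Both were below saline in either arm. Oas1a had 40.4 CPM with AngII/PE and 46.5 CPM with saline after carboplatin and 35.0 CPM with AngII/PE and 52.8 CPM with saline after PBS. Of the last 500 transcript bases of Oas1a, 56.1% of 50-base words also occur in Oas1g, so its counts are uncertain. The same share was 14.9% for Ifit3 with Ifit3b and 14.0% for Ifitm3 with a pseudogene.

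Of the members at intermediate level, Parp14, an ADP-ribosyltransferase, had 123 CPM with AngII/PE and 139 CPM with saline after carboplatin and 113 CPM with AngII/PE and 140 CPM with saline after PBS. Trim30a had 150 CPM after carboplatin and 141 CPM after PBS with AngII/PE, and 139 CPM after carboplatin and 159 CPM after PBS with saline. The giant ligase Rnf213 had 132 CPM after carboplatin and 120 CPM after PBS with AngII/PE, and 146 CPM after carboplatin and 131 CPM after PBS with saline. The largest ratio among these 3 was that of Parp14 after PBS, 1.24-fold lower with AngII/PE (interval 1.19 to 1.30). The immunity-related GTPase Ifi47 had 79.4 CPM after carboplatin and 57.2 CPM after PBS with AngII/PE, and 59.0 CPM after carboplatin and 46.1 CPM after PBS with saline, and Slfn5 had 125 CPM after carboplatin and 113 CPM after PBS with AngII/PE, and 128 CPM after carboplatin and 125 CPM after PBS with saline. None of these 5 passed 1.5-fold in any of the 4 comparisons.

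The members' UMIs were unevenly spread over cells. One cluster, led by Ifit3, Cxcl10, Cxcl9, Ifit2 and Ifit1, held 355 of 8984 macrophage-like cells (3.95%) and 4.14% of their UMIs. It carried all 10 markers of an interferon-responsive state, which apart from Cxcl10 are members themselves. Member genes took part in the clustering and the naming, so their excess in it is a description. Its size depended on the clustering. With log-normalised values the cluster of that name had 742 cells. With the listed interferon genes left out of the clustering, the name fell to a cluster of 2448 cells. Only the cluster of 355 cells is used below. This cluster held 5.26% of macrophage-like cells after carboplatin with AngII/PE (205 cells), 4.65% after PBS with AngII/PE (98), 2.26% after carboplatin with saline (23) and 1.48% after PBS with saline (29). Of the members' summed UMIs it held 20.6% after carboplatin and 22.5% after PBS with AngII/PE, and 8.37% after carboplatin and 7.65% after PBS with saline.

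Members differed in how far they were concentrated there. Rsad2, Ifit3 and Ifit3b had 63.8%, 63.7% and 63.6% of their macrophage UMIs in that cluster, and Irf9, Ifi27l2a and Ly6e had 5.86%, 8.06% and 10.8%, the lowest shares among members and each above the cluster's share of all UMIs. Isg15 lay between, at 50.5%, and Irf7 at 30.7%. Thinned to 2000 UMIs a cell, Rsad2 was detected in 3.72% of macrophage-like cells after carboplatin with AngII/PE, 4.68% after PBS with AngII/PE, 2.95% after carboplatin with saline and 2.05% after PBS with saline. Ly6e was detected in 70.4% after carboplatin and 52.7% after PBS with AngII/PE, and 49.0% after carboplatin and 45.2% after PBS with saline. At this depth Rsad2 was seen in few cells of any library and Ly6e in many. Without thinning the shares for Rsad2 were 14.5% after carboplatin and 12.6% after PBS with AngII/PE, and 11.3% after carboplatin and 9.23% after PBS with saline, and for Ly6e 96.3% after carboplatin and 89.5% after PBS with AngII/PE, and 87.4% after carboplatin and 80.3% after PBS with saline. In endothelial-like cells, thinned in the same way, Rsad2 was detected in 22.6% after carboplatin and 20.9% after PBS with AngII/PE, and 19.1% after carboplatin and 21.7% after PBS with saline. Most cell types respond to interferon, so no class serves as one that lacks these genes.

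The comparisons were repeated without the interferon-like cluster. Under AngII/PE, all 40 members were then higher after carboplatin than after PBS (all genes: 51.8%), with a median log2 ratio of 0.38. Ifit3 had 30.7 CPM after carboplatin and 19.5 CPM after PBS outside the cluster, and Rsad2 had 15.4 CPM after carboplatin and 10.4 CPM after PBS. Isg15 had 50.5 CPM after carboplatin and 34.6 CPM after PBS there, and Irf7 125 CPM after carboplatin and 80.5 CPM after PBS. Within the interferon-like cluster, 18 of 40 members were higher (all genes: 53.1%), with a median of -0.02. Under AngII/PE the carboplatin library was thus above the PBS library outside the interferon-like cluster, and about even with it inside. Member genes shaped the cluster, so its cells were chosen partly by the values compared. Near-even values inside it therefore do not show where the drug difference lies.

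For AngII/PE over saline, leaving the cluster out lowered the ratios. After PBS and without the cluster, 13 of 40 members were higher (all genes: 50.4%), with a median log2 ratio of -0.21. Ifit3 then had 19.5 CPM with AngII/PE and 25.4 CPM with saline, a log2 ratio of -0.38, and Cmpk2, the nucleotide kinase beside Rsad2, one of -0.46. After carboplatin and without the cluster, 22 of 40 members were higher (all genes: 53.7%), with a median of 0.15, and Cmpk2 was at -0.13. Irf7 was still higher with AngII/PE, at a log2 ratio of 1.68 after carboplatin and 1.64 after PBS. Of the members past 1.5-fold in either direction, 7 of 14 after PBS and 8 of 15 after carboplatin remained past it without the cluster. No share over all genes is given beside these counts, so they are a description only.

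**Figure D3:**
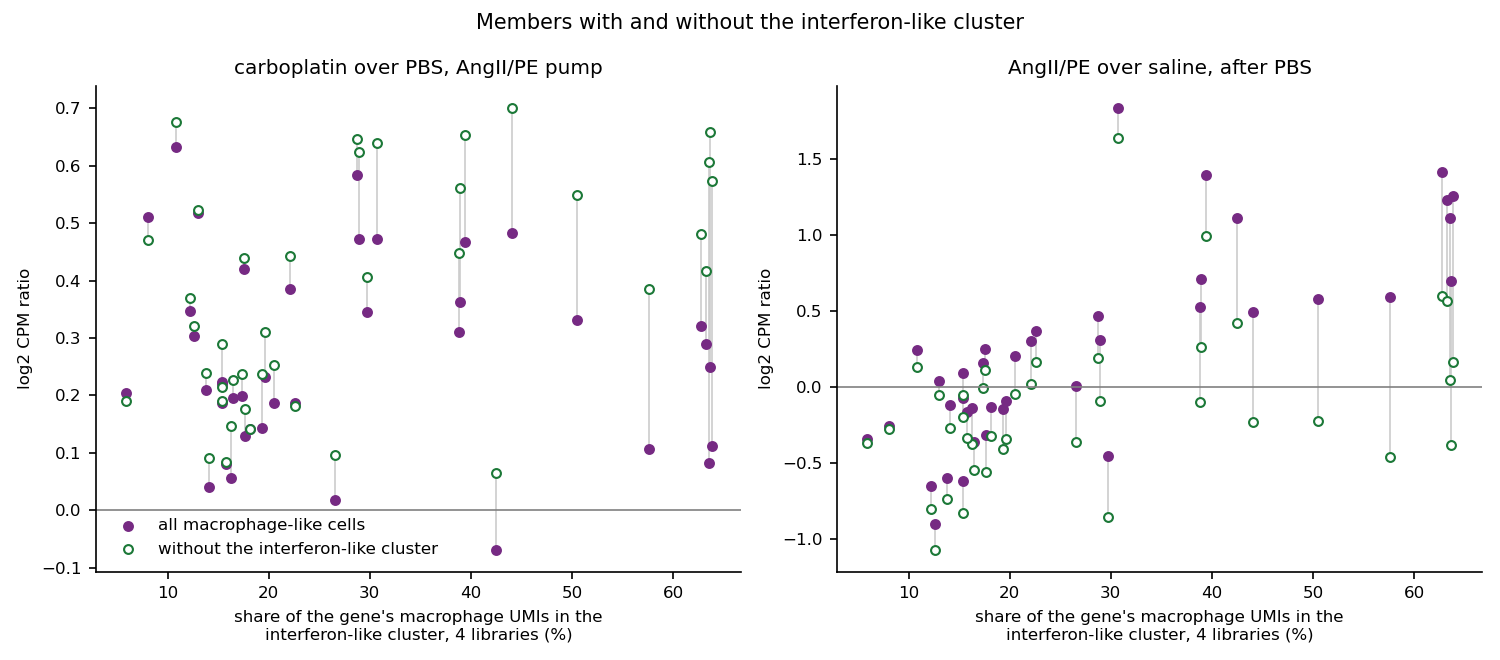
Log2 CPM ratio of each member (y axes) against the share of its macrophage UMIs that lie in the interferon-like cluster (x axes), for carboplatin over PBS under AngII/PE on the left and AngII/PE over saline after PBS on the right; filled points are all macrophage-like cells, open points leave the cluster out, and lines join the same gene. For members with a high share, open points lie above filled ones on the left and below them on the right.

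Sums per cell were compared next. The 40 members took a median of 41.0 UMIs per 10000 in macrophage-like cells after carboplatin with AngII/PE, 28.4 after PBS with AngII/PE, 41.1 after carboplatin with saline and 38.6 after PBS with saline. At percentile 99 the values were 309 UMIs after carboplatin and 302 UMIs after PBS with AngII/PE, and 231 UMIs after carboplatin and 223 UMIs after PBS with saline. At percentile 95 the libraries with AngII/PE still differed, at 166 UMIs after carboplatin and 138 UMIs after PBS. So these 2 libraries were alike only at the very top of the distribution. They were apart at its middle, where PBS with AngII/PE stood low. The 5% of cells with the highest values held 20.7% after carboplatin and 25.4% after PBS with AngII/PE, and 16.9% after carboplatin and 18.3% after PBS with saline of the members' UMIs.

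**Figure D4:**
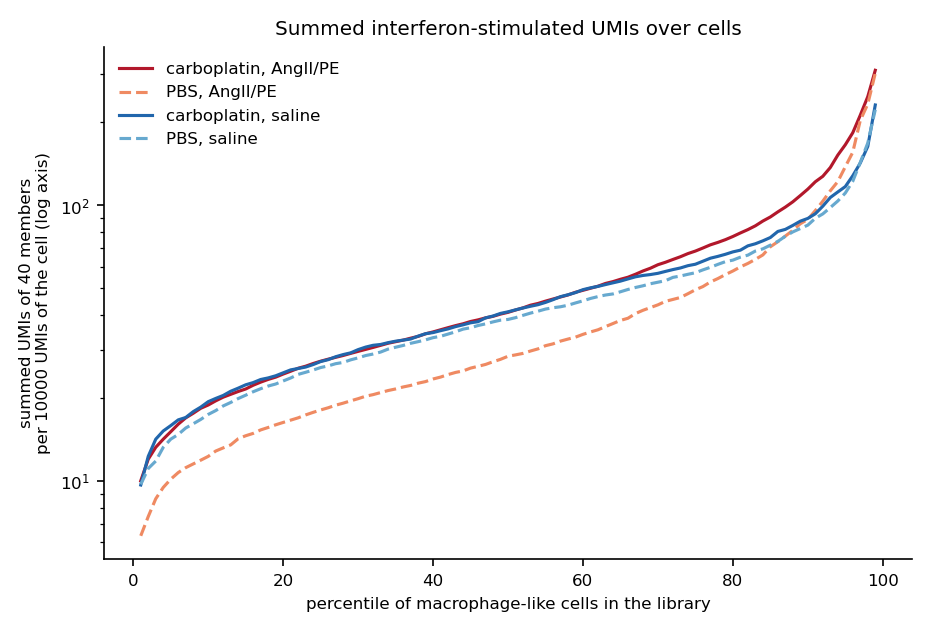
Summed UMIs of the 40 members per 10000 UMIs of the cell (log axis) at each percentile of macrophage-like cells, 1 line per library. The line of PBS with AngII/PE runs under the other 3 over most of the range, and both AngII/PE lines end above both saline lines.

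Within clusters, carboplatin over PBS under AngII/PE gave 39 of 40 members higher in the Fcrls and Ccl8 cluster (1546 and 600 cells, median log2 ratio 0.37, all genes 47.0% higher). It gave 38 of 40 in the inflammatory cluster (1149 and 700 cells, 0.26, all genes 54.6%), 37 of 40 in the MHC class II cluster (652 and 422 cells, 0.25, all genes 49.8%) and 38 of 40 in the Gpnmb and Spp1 cluster (300 and 195 cells, 0.54, all genes 50.8%). In the resident cluster, with 44 and 93 cells, 29 of 40 were higher (0.43, all genes 46.0%). Each of these 5 clusters had a median above 0. AngII/PE over saline within clusters rested on few cells from one side or the other. After PBS, 21 of 37 members were higher in the Fcrls and Ccl8 cluster (600 and 27 cells, median 0.05, all genes 50.4%), 7 of 40 in the inflammatory cluster (700 and 97 cells, -0.36, all genes 57.2%) and 3 of 37 in the MHC class II cluster (422 and 24 cells, -0.55, all genes 47.0%). It was 6 of 28 in the Gpnmb and Spp1 cluster (195 and 10 cells, -0.52, all genes 45.4%), 16 of 40 in the resident cluster (93 and 1774 cells, -0.10, all genes 50.9%) and 16 of 40 in the interferon-like cluster (98 and 29 cells, -0.09, all genes 51.1%). After carboplatin, 17 of 38 were higher in the Fcrls and Ccl8 cluster (1546 and 30 cells, -0.07, all genes 50.5%), 17 of 40 in the inflammatory cluster (1149 and 94 cells, -0.08, all genes 59.7%) and 8 of 40 in the MHC class II cluster (652 and 32 cells, -0.34, all genes 52.7%). It was 11 of 33 in the Gpnmb and Spp1 cluster (300 and 9 cells, -0.35, all genes 54.6%), 26 of 40 in the resident cluster (44 and 831 cells, 0.27, all genes 50.1%) and 27 of 40 in the interferon-like cluster (205 and 23 cells, 0.26, all genes 54.6%). Members with fewer than 3 UMIs on either side were left out of these counts, which drops members that were low on the side with few cells. The direction differed between clusters. Within the MHC class II cluster most of the members counted were lower with AngII/PE in both arms. In the Gpnmb and Spp1 cluster, with 10 and 9 saline cells, the members left out keep a common direction from being read.

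The sex of the pooled mice moved with these values. Cells were called female from Xist and male from Y-linked genes. Female-called cells made up 53.9% of called macrophage-like cells after carboplatin with AngII/PE, 32.7% after PBS with AngII/PE, 58.7% after carboplatin with saline and 51.6% after PBS with saline. With AngII/PE, all 40 members were higher in female-called than in male-called cells in either library. The median log2 ratio was 0.50 after carboplatin (all genes: 40.5% higher) and 0.57 after PBS (all genes: 46.4%). After PBS with saline it was 34 of 40 (0.30, all genes 48.2%), and after carboplatin with saline 22 of 40 (0.02, all genes 54.1%). The median female-called cell carried 47.3 member UMIs per 10000 and the median male-called cell 35.1 after carboplatin with AngII/PE, and 33.8 (female-called) and 24.9 (male-called) after PBS with AngII/PE. With saline the female-called medians were 41.4 after carboplatin and 42.3 after PBS, and the male-called ones 40.9 after carboplatin and 36.2 after PBS. How many of the 5 mice of a pool were female is not given, so the sexes are each a few unseparated animals.

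Single members show the size of this difference. With AngII/PE, Ifit1 had 49.2 CPM in female-called and 28.1 CPM in male-called cells after carboplatin, and 60.5 CPM in female-called and 21.7 CPM in male-called cells after PBS. With saline it had 17.4 CPM in female-called and 12.8 CPM in male-called cells after carboplatin, and 16.4 CPM in female-called and 6.76 CPM in male-called cells after PBS. Isg15 with AngII/PE had 128 CPM in female-called and 74.1 CPM in male-called cells after carboplatin, and 112 CPM in female-called and 67.3 CPM in male-called cells after PBS. In each of these pairs female-called cells were higher. For Ly6e with AngII/PE the sexes were closer, at 919 CPM in female-called and 798 CPM in male-called cells after carboplatin, and 603 CPM in female-called and 529 CPM in male-called cells after PBS.

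Within a sex, the carboplatin difference under AngII/PE was smaller for most members. In female-called cells 25 of 40 were higher after carboplatin (median log2 ratio 0.04, all genes 48.8%), and in male-called cells 37 of 40 (0.21, all genes 53.7%). With both sexes given the same weight, 29 of 40 were higher (0.11, all genes 51.0%). Ly6e was higher in both, as its values above show. Under saline, 16 of 40 were higher after carboplatin in female-called cells (-0.03, all genes 49.3%) and 34 of 40 in male-called cells (0.33, all genes 42.7%). The part of the sex mix in the pooled values was not tested.

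**Figure D5:**
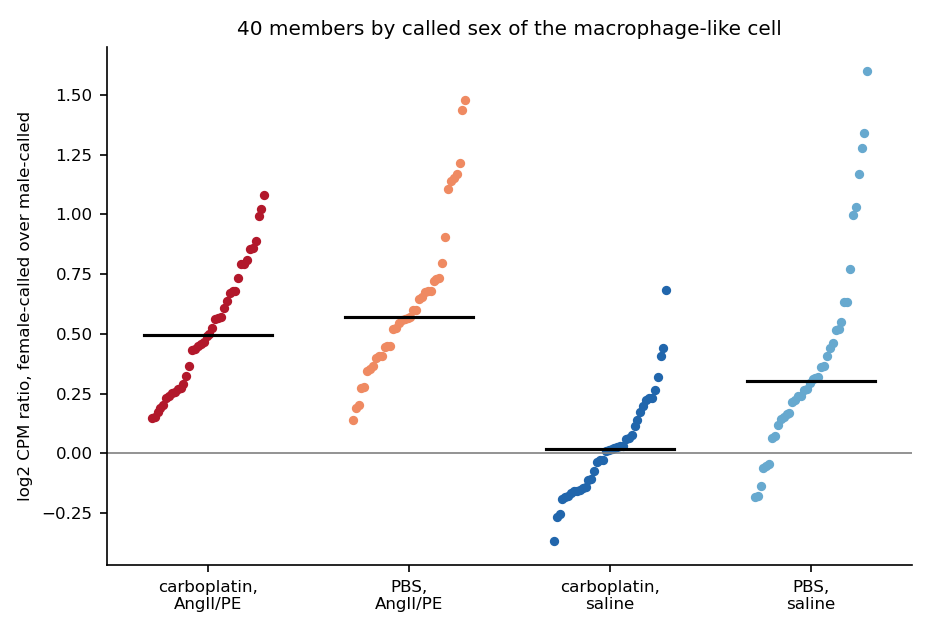
Log2 CPM ratio of female-called over male-called macrophage-like cells for the 40 members in each library; each point is 1 gene, sorted within the library, and the bar is the median. All points lie above 0 in both AngII/PE libraries, while the carboplatin saline library is centred near 0.

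UMIs of the members were also found in other cells that passed the sort. Endothelial-like cells had a higher sum than macrophage-like cells in every library, with 7347 CPM after carboplatin and 5955 CPM after PBS with AngII/PE, and 6223 CPM after carboplatin and 5757 CPM after PBS with saline. Rsad2 had 249 CPM after carboplatin and 158 CPM after PBS with AngII/PE, and 166 CPM after carboplatin and 170 CPM after PBS with saline there, above its 16.0 to 41.2 CPM in macrophage-like cells. Ifi27l2a was lower there than in macrophage-like cells, with 145 CPM after carboplatin and 114 CPM after PBS with AngII/PE, and 71.7 CPM after carboplatin and 121 CPM after PBS with saline. Type 2 dendritic cells (3064 to 4195 CPM) and fibroblast-like cells (2334 to 3997 CPM) had lower sums. The summed level of 10 macrophage markers in these classes, relative to macrophage-like cells of the same library, was 6.09% to 10.5% in endothelial-like cells, 17.1% to 30.8% in type 2 dendritic cells and 1.78% to 3.80% in fibroblast-like cells. In B cells it was 40.3% to 46.3% and in cardiomyocyte-like barcodes 82.8% to 86.5%, so no member values are given for them. The part of free or shared macrophage RNA in the values of the other classes was not tested.

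Under AngII/PE, the carboplatin library was above the PBS library for most members in endothelial-like, type 2 dendritic and fibroblast-like cells as well. It was 35 of 40 members in endothelial-like cells (354 and 304 cells, median log2 ratio 0.31, all genes 53.9% higher). It was 30 of 40 in type 2 dendritic cells (129 and 165 cells, 0.44, all genes 45.9%) and 28 of 36 with enough counts in fibroblast-like cells (92 and 115 cells, 0.52, all genes 47.1%). Barcodes of low UMI number with macrophage markers, left unnamed, gave 37 of 40 (826 and 711 cells, 0.33, all genes 52.0%). All classes of a library come from the same 5 mice and the same reaction.

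The unnamed low-UMI barcodes with macrophage markers had more of most members after carboplatin under saline as well. In them, 35 of 40 members were higher after carboplatin with saline (625 and 791 cells, median log2 ratio 0.38, all genes 49.8% higher). In named macrophage-like cells the same comparison gave 25 of 40 and 0.06. Irf7 had 25.9 CPM after carboplatin and 12.6 CPM after PBS with saline in those barcodes, and Rsad2 19.0 CPM after carboplatin and 8.30 CPM after PBS.

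Fibroblast-like cells had fewer UMIs of the members with AngII/PE than with saline. After PBS, 29 of 36 members were lower (115 and 75 cells, median log2 ratio -0.66, all genes 46.6% higher), and after carboplatin 25 of 37 (92 and 70 cells, -0.38, all genes 47.4% higher). Ifi27l2a had 690 CPM after carboplatin and 386 CPM after PBS with AngII/PE, and 947 CPM after carboplatin and 758 CPM after PBS with saline in these cells.

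Other genes of the pathway were grouped by role. Of the interferon genes, none reached 10 CPM. Ifnb1, interferon beta, had 39 UMIs in 7 macrophage-like cells after carboplatin with AngII/PE, 26 of them in 1 cell, and 36 lay in the interferon-like cluster. It had 4 UMIs in 4 cells after PBS with AngII/PE, 10 in 4 cells after carboplatin with saline and 8 in 5 cells after PBS with saline. Ifng, interferon gamma, had 25 UMIs in 4 cells after carboplatin and 0 UMIs after PBS with AngII/PE, and 87 UMIs in 21 cells after carboplatin and 10 UMIs in 5 cells after PBS with saline, over all kept cells. Only 1 of these UMIs lay in a macrophage-like cell. The subtypes of interferon alpha that were looked up had 0 UMIs in macrophage-like cells.

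Of 10 receptor and JAK-STAT genes, 0 passed 1.5-fold between drugs under AngII/PE, with a median log2 ratio of -0.08. Of all genes, 0.435% were 1.5-fold higher there and 0.989% lower, so 0 among so few genes says little. With saline 1 of the 10 was at least 1.5-fold higher after carboplatin (all genes: 1.68%), with a median of 0.09. Ifnar2, a chain of the type I receptor, had 448 CPM after carboplatin with AngII/PE, 341 after PBS with AngII/PE, 230 after carboplatin with saline and 210 after PBS with saline. Jak1 had 230 CPM after carboplatin and 257 CPM after PBS with AngII/PE, and 314 CPM after carboplatin and 425 CPM after PBS with saline, lower after carboplatin within each pump. Among 16 genes of nucleic acid sensing, 0 passed 1.5-fold between drugs under either pump. That too says little beside the shares of all genes, which with saline were 1.68% higher and 2.15% lower. The kinase Ikbke had 14.4 CPM after carboplatin and 16.6 CPM after PBS with AngII/PE, and 8.38 CPM after carboplatin and 6.26 CPM after PBS with saline. Of 9 negative regulators, Socs3, an inhibitor of JAK kinases, had 267 CPM after carboplatin and 360 CPM after PBS with AngII/PE, and 208 CPM after carboplatin and 318 CPM after PBS with saline, and it was past 1.5-fold lower after carboplatin with saline.

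Genes linked to interferon gamma were a separate list. Of 13 measured, 6 were at least 1.5-fold higher after carboplatin than after PBS with the saline pump (all genes: 1.68%), with a median log2 ratio of 0.40, and 1 with AngII/PE (0.25, all genes past 1.5-fold: 0.435%). Gbp2, a guanylate-binding GTPase, had 57.0 CPM after carboplatin and 25.0 CPM after PBS with saline, and the ligand Cd274 (PD-L1) 29.8 CPM after carboplatin and 13.1 CPM after PBS. Ciita, the master regulator of MHC class II genes, had 67.5 CPM after carboplatin and 79.3 CPM after PBS with AngII/PE, and 250 CPM after carboplatin and 157 CPM after PBS with saline. Of 53 further interferon-stimulated genes outside the list, 50 were higher after carboplatin under AngII/PE (median 0.16, all genes 51.4% higher), 1 of them at least 1.5-fold (all genes: 0.435%). That gene was Slfn9, with 32.2 CPM after carboplatin and 15.2 CPM after PBS. With saline, 7 of the 53 were at least 1.5-fold higher after carboplatin (all genes: 1.68%), among them Cxcl10, with 106 CPM after carboplatin and 57.4 CPM after PBS.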

How the data were processed

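The labels' protocols name Cell Ranger V3 and the mm10 transcriptome, while the file headers name Cell Ranger 7.1.0. The submitters' processing notes list Seurat 4 and the labels' protocols Seurat 3.2.3. The authors deposited raw UMI counts per gene and barcode for 4 libraries, and no cell annotation was used here. The series text states 38066 cells before and 17438 after filtering. The files hold 27968 barcodes, of which the stated filters (500 to 7000 genes, under 30000 UMIs, under 10% mitochondrial UMIs) kept 17312. No doublet caller was run.

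Cells were clustered with Seurat 5.3.0 and sctransform 0.4.2 (80 components, resolution 0.6) under R 4.3.3, giving 23 clusters. They were named from fixed marker lists where the leading genes did not contradict the name. Classes other than macrophage-like needed at least 3 markers and 60% of a list. Each marker had to be 2-fold above other cells and in over 10% of the cluster's cells. The macrophage-like class needed 7 of 10 markers at 25% or more of the level over all cells, with no excess required. Macrophage-marker clusters under 50% of the library's median UMIs stayed unnamed. The cycling cluster and unnamed clusters stayed outside the macrophage-like class. UMIs were summed per library and class and scaled to CPM. Ratios carry exact conditional binomial 95% intervals and shares exact Clopper-Pearson intervals (scipy 1.17.1). With 1 library per group no test was made and no p-value is given. Thinning drew 2000 UMIs from each cell and left out shallower ones. Of macrophage-like cells these were 22 and 13 with AngII/PE and 1 and 8 with saline, after carboplatin and PBS. Endothelial-like cells lost 35 of 354 after carboplatin and 21 of 304 after PBS with AngII/PE. With saline they lost 116 of 555 after carboplatin and 109 of 598 after PBS. Sex was called from at least 2 UMIs of Xist or of Y-linked genes, and uncalled cells were left out of comparisons by sex. Ratios and intervals were tried on simulated counts with known changes. These were drawn per gene and library with the counting error that the intervals assume, and without an uneven spread over cells. The trial checks the calculation and does not show how well the intervals hold for these data.

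The members and all gene lists were chosen with earlier results of these data known. Named genes were the 4 highest and 4 lowest members of each comparison, the 2 most abundant of each role and the 3 at either end of the share in the interferon-like cluster, and for other lists the 3 largest differences. One gene named by this rule is not reported here. Ifnb1 and Ifng were picked after their values were seen. Cmpk2, Rtp4, Ddx58 and Dhx58 were also named outside this rule. The 5 genes at intermediate level were among the 2 most abundant of their role. Alternatives covered the CPM minimum, cell filters, other normalizations and clusterings, sex, and leaving the interferon-like cluster out.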

Additional observations from a re-analysis of the deposited data

Results flagged for a closer look

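In 12 cases a member's log2 ratio had a size of at least 0.2 and an interval clear of 0 in opposite directions in the sexes or under the pumps. How often genes outside the list do so was not counted, so the number of cases has no background beside it. None of these differences was tested, since each side is 1 pair of libraries. For carboplatin over PBS with the saline pump, Dhx58 had -0.30 among female-called cells and 0.77 among male-called ones, Rtp4 -0.26 and 0.29, and Slfn5 -0.30 and 0.33. For carboplatin over PBS with AngII/PE, Ifit1 had -0.30 among female-called cells and 0.37 among male-called ones, and Rsad2 -0.33 and 0.24. For AngII/PE over saline after PBS, Slfn8 had 0.30 among female-called cells and -0.22 among male-called ones. After carboplatin, Ifih1 had 0.29 among female-called cells and -0.39 among male-called ones, Ifi27l2a 0.22 and -0.60, and Phf11d 0.48 and -0.36.

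Between pumps, the carboplatin over PBS ratio of Ifit3 was 0.25 with AngII/PE and -0.40 with saline, that of Bst2 0.52 with AngII/PE and -0.24 with saline, and that of Phf11d 0.34 with AngII/PE and -0.26 with saline.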

How the results depend on the processing

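The median log2 ratio of members for carboplatin over PBS under AngII/PE was 0.23 and became 0.38 without the interferon-like cluster, 0.038 in female-called cells and 0.11 with both sexes given the same weight, a weighting chosen after seeing the sex mix. With saline it was 0.06, and 0.33 in male-called cells. The pump median after carboplatin was 0.42, and 0.15 without the interferon-like cluster, 0.017 over members of at least 50 CPM, 0.56 among female-called cells and 0.050 among male-called ones. After PBS it was 0.18, reversed to -0.21 without that cluster and to -0.083 over members of at least 50 CPM, and was 0.40 in female-called cells and 0.27 with the sexes weighted alike. The median difference between pumps, 0.14, reversed to -0.13 in male-called cells. Without the cluster, 11 members had the opposite sign after PBS and 4 after carboplatin, with no count over all genes beside them. Those among them past 1.5-fold with it were Ifit3 (-0.38) and Cmpk2 (-0.46) after PBS and Cmpk2 (-0.13) after carboplatin. Leaving the cluster out removes the cells richest in these genes by construction; the cause of the other shifts was not tested. Without the 5 most abundant members, the top 5% of cells held 29.5% after carboplatin and 35.5% after PBS with AngII/PE, and 23.5% after carboplatin and 25.4% after PBS with saline, of the UMIs. The median share of cells with a UMI of a member was 10.6% after carboplatin and 8.93% after PBS with AngII/PE, and 9.97% after carboplatin and 9.01% after PBS with saline when thinned, and 43.8%, 37.5%, 46.5% and 39.7% for the same libraries with all UMIs. Under the other settings (size factors, cell filters, equal weight per cell, no CPM minimum, other clusterings, unnamed clusters added, or the other sex) the medians ran from 0.21 to 0.30 for the drug under AngII/PE, from 0.38 to 0.44 for the pump after carboplatin, from 0.14 to 0.22 for the pump after PBS, and, on both sides of 0, from -0.03 to 0.10 for the drug under saline. The difference between pumps ran from 0.03, with the sexes weighted alike, to 0.28.

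Leaving out a replicate was not possible with 1 library per group. No paired analysis was possible because each group has 1 library and shares no more than 1 number with another. The limits are that drug, pump, pool of mice and reaction cannot be told apart, that sexes were inferred from RNA, and that member genes shaped the interferon-like cluster.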

Other observations

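Among the members below the minimum, Ifi44 had 11.4 CPM after carboplatin and 6.73 CPM after PBS with AngII/PE, and 3.11 CPM after carboplatin and 1.32 CPM after PBS with saline. Ifi205, of which 79.2% of 50-base words near the transcript end also occur in Ifi211, had 10.6 CPM after carboplatin and 13.1 CPM after PBS with AngII/PE, and 7.15 CPM after carboplatin and 4.34 CPM after PBS with saline.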
